A study of Mus musculus with 8 samples.

Results

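The cluster of miR-188, miR-362, miR-500, miR-501 and miR-532 is a run of miRNA genes on the mouse X chromosome, inside the gene Clcn5. It is represented on the array by 9 miRNAs out of 611 mouse miRNAs, and all 9 were found by exact name: mmu-miR-188-5p, mmu-miR-188-3p, mmu-miR-362-5p, mmu-miR-362-3p, mmu-miR-500, mmu-miR-501-5p, mmu-miR-501-3p, mmu-miR-532-5p and mmu-miR-532-3p. The cluster was chosen on its measured pattern in these tissues, in which mmu-miR-188-5p was detected in TEBs alone, so the tissue levels of the 9 members are a description and no p-value is attached to them. The arrays profiled 3 fractions cut by micro-dissection from mammary glands 2 to 5 of female mice aged 5 weeks, the age of ductal outgrowth. All mice carried a beta actin-GFP reporter on an FVB/n background, so the green ductal tree could be seen under a fluorescence microscope, and no treatment, mutation or other genotype separated the groups. The fractions were terminal end buds (TEBs), the club-shaped growing tips of the ducts, on 3 arrays, mature ducts on 2 arrays and distal stroma on 3 arrays. Each array was hybridised with total RNA of a dissected fraction, which mixes several cell types, so that fewer cells of a type and less miRNA per cell cannot be told apart. The sources used here do not say that the arrays of a fraction came from separate mice, and errors and tests therefore measure the spread between arrays, which may be technical.

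miRNAs are cut from hairpins in a longer transcript by the nucleases Drosha and Dicer, and either arm of the hairpin can give a mature miRNA, called -5p or -3p after the arm. The mature strand is loaded into an Argonaute protein and pairs with messenger RNAs mainly through its seed, bases 2 to 8, which lowers their translation and stability. Hairpins close together on the same strand are often cut from a shared transcript, yet the level of each mature strand also depends on its own processing and decay. The host gene Clcn5 encodes a chloride and proton exchanger of endosomes that is best known for its part in protein uptake by the kidney tubule.

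The RefSeq annotation (GRCm38.p6) placed 5 hairpins on the minus strand of chromosome X, all of them inside Clcn5, which lies on the same strand. In the direction of transcription the order was Mir532 (chrX:7248402-7248497), Mir188 (chrX:7247989-7248056), Mir362 (chrX:7241982-7242046), Mir501 (chrX:7241243-7241351) and Mir500 (chrX:7237683-7237774), over 10815 bp. Mir532 and Mir188 were 345 bp apart, and a gap of 5942 bp separated Mir188 from Mir362. Mir362 and Mir501 lay 630 bp apart, and Mir500 followed after 3468 bp. The arms of Mir532 also differed in signal, but the RefSeq annotation used here gave no mature sequence for mmu-miR-532-5p. The hairpins of Mir188 and Mir362 are shown because their 5p and 3p arms gave different signals. Their arms are in capitals, and the sequence is written 5′ to 3′ along the transcript.
Mir188: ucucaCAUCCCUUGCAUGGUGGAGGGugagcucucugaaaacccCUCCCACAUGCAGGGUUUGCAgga
Mir362: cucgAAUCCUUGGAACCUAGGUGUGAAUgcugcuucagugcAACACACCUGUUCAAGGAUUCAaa

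The mature sequences show which members could act on the same messenger RNAs, and their capitals mark the seed. RefSeq gave a sequence under the same name for 7 of the members. None was found for mmu-miR-532-5p, which is therefore absent from the sequences and the seed comparison below. The array name mmu-miR-500 does not state an arm, and both arms of Mir500 are listed for it. The first set is the 5p arms.
mmu-miR-188-5p: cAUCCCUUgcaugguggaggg
mmu-miR-362-5p: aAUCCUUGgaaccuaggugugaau
mmu-miR-500-5p: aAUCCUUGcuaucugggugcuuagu
mmu-miR-501-5p: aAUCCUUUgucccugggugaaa
The remaining set is the 3p arms.
mmu-miR-188-3p: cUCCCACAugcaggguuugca
mmu-miR-362-3p: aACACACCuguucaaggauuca
mmu-miR-500-3p: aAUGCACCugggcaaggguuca
mmu-miR-501-3p: aAUGCACCcgggcaaggauuug
mmu-miR-532-3p: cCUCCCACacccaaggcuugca

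The 5p arms of Mir362 and Mir500 had the same seed, AUCCUUG, and were identical at 16 of 24 aligned positions counted from the 5′ end. mmu-miR-501-5p shared bases 2 to 7 with both, matched mmu-miR-362-5p at 16 of 22 positions, and had another base 8. The 3p arms of Mir500 and Mir501 shared the seed AUGCACC and 18 of 22 positions. mmu-miR-362-3p matched the 3p arm of Mir500 at 17 of 22 positions but had a seed of its own within the cluster, ACACACC. Each of these 3 seeds stood in 2 of 1679 mature mouse names in the RefSeq table (0.119%), so those of the shared 5p and 3p pairs were found there only in this cluster. The other name with the seed of mmu-miR-362-3p was the 3p arm of miR-329, and mmu-miR-329, an array name without an arm, was detected on all 8 arrays. The stated arms of mmu-miR-188-5p, mmu-miR-188-3p and mmu-miR-532-3p shared their seeds with no other array miRNA that could be matched, among 493 of the 611.

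**Figure D1:**
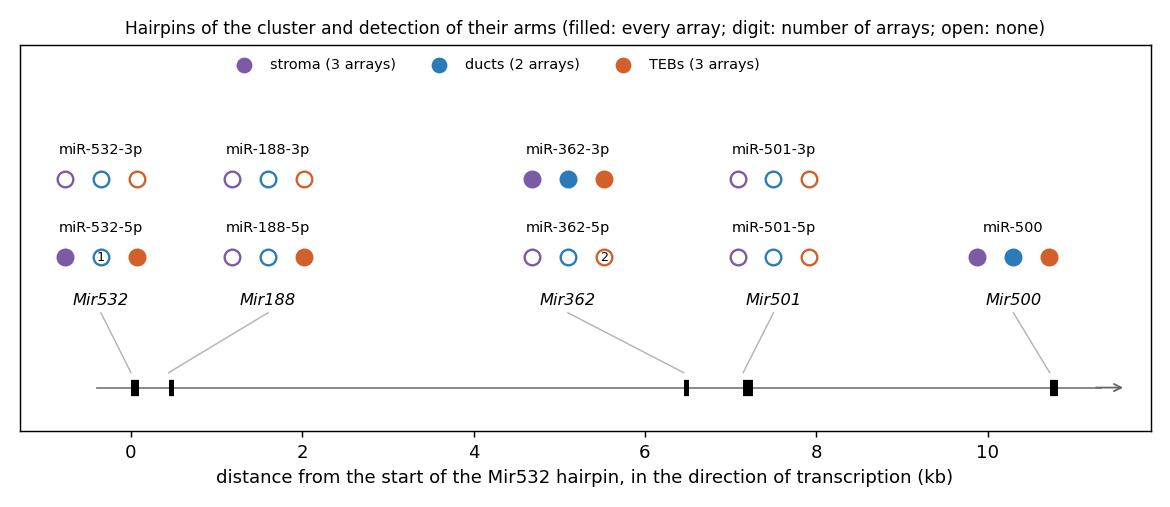
Position of the 5 hairpins (black blocks) in kb from the start of the Mir532 hairpin, with a row of 3 circles for each array miRNA (stroma, ducts, TEBs). A filled circle means detection on every array of the fraction, a digit the number of arrays where only some detected it, and an open circle none. mmu-miR-362-3p and mmu-miR-500 are filled in all 3 fractions, whereas mmu-miR-188-5p is filled in TEBs alone.

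Across all mouse miRNAs, 23.2% to 27.7% were detected on each array, and these arrays give no counts, so their number limits the precision. Signals are in array units after background subtraction, so weak ones can be negative, and scaled signals were brought to a common 75th percentile over the 108 miRNAs detected on all 8 arrays. The fractions were checked by markers: all 6 epithelial miRNAs listed (the miR-200 family and miR-205) gave a detected signal on each epithelial array and on none of the stroma arrays. The summed scaled signal of these 6 was -65.2 to -32.3 on the stroma arrays, 2077 to 2316 on the duct arrays and 1948 to 2057 on the TEB arrays. Of the 5 fibroblast and smooth muscle markers (the miR-143, miR-145, miR-199a and miR-214 group), 4 were detected on every array of each fraction. Their sums were 2466 to 2963 in stroma, 3427 to 3510 in ducts and 3156 to 3775 in TEBs, so the sums were not lower in the epithelial fractions. Most of each sum was mmu-miR-199a-3p, with means of 2143, 2757 and 2777 in the same order. The means of mmu-miR-199a-5p and mmu-miR-214 were also higher in both epithelial fractions. That of mmu-miR-143 was 82.6 in stroma, 95.1 in ducts and 62.2 in TEBs, and mmu-miR-145 was not detected. Which cells of the ducts and TEBs gave these signals was not tested. Of the other marker sums, only the endothelial one separated all 3 fractions. It was 2757 to 3847 in stroma, 1906 to 2051 in ducts and 1312 to 1646 in TEBs (1 of 2 markers detected on every array of each fraction). In the same order the leukocyte sum was 559 to 679, 357 to 367 and 295 to 450 (2 of 4), highest in stroma. The red cell sum was 2018 to 3622, 2617 to 3320 and 1385 to 1923, lowest in TEBs (3 of 3 markers in stroma and ducts, 2 of 3 in TEBs). The skeletal muscle sum was 1.21 to 41.3 in stroma, 27.5 to 169.9 in ducts and 7.46 to 81.1 in TEBs, and 2 of 4 markers were detected on both duct arrays, while 0 of 4 were detected on all stroma arrays or on all TEB arrays. Their part in the members' differences was not tested.

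Of the 9 members, 3 were detected on every stroma array (mmu-miR-362-3p, mmu-miR-500 and mmu-miR-532-5p), 2 on every duct array (mmu-miR-362-3p and mmu-miR-500) and 4 on every TEB array (the 3 of stroma and mmu-miR-188-5p). A further member, mmu-miR-362-5p, was detected on 2 of the 3 TEB arrays. The other 4, mmu-miR-188-3p, mmu-miR-501-5p, mmu-miR-501-3p and mmu-miR-532-3p, were detected on no array. Only 4 members were therefore detected on every array of at least 1 fraction and entered the fit across the 167 miRNAs that met this filter. A member that passed through a single fraction had to be high there, which is how mmu-miR-188-5p passed.

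mmu-miR-188-5p is the member whose tissue pattern the cluster was chosen on. Its unscaled signal was 28.7, 27.6 and 21.4 units on the TEB arrays, -4.54 and 2.08 on the duct arrays, and -11.9, -14.0 and -4.30 on the stroma arrays. The TEB signals were 9.77, 7.99 and 5.78 times their own errors, while no duct or stroma signal reached its error. The TEB arrays stood apart from all 5 others, whereas the unscaled duct and stroma signals overlapped, and both were below the detection level of the scanner software. After scaling, the TEBs averaged 25.8 ± 3.3 units (SD, n = 3), the ducts -0.87 ± 3.6 (SD, n = 2) and the stroma -11.6 ± 5.5 (SD, n = 3).

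With ducts and stroma not well above background, the TEB enrichment of mmu-miR-188-5p can be given only as a lower bound. Set against the lowest detected signal of each array, TEBs were at least 4.67-fold higher than ducts and at least 3.44-fold higher than stroma, on a scale that takes the deposited zero of each array as given. With scaled signals under 1 set to 1, the fitted log2 fold change was 4.31 (SE 0.22) over ducts and 4.68 (SE 0.20) over stroma. These fitted values are set by the floor, which also flattens the stroma values and narrows the standard errors. The slide row was read from position codes in the names of the deposited array data and is not given in the sample labels. Within the first slide row (2 TEB arrays, 1 duct array) the log2 fold change over ducts was 4.78, and within the second (1 of each) it was 3.75. Over stroma it was 4.78 and 4.48. The floor enters here too, since it replaced the value on the first duct array and on every stroma array.

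The level of the undetected miRNAs itself differed between the arrays and changes how far mmu-miR-188-5p in ducts lay from TEBs. The median unscaled signal of the 408 mouse miRNAs detected on no array was -4.28, -5.66 and -7.61 units on the TEB arrays, -21.2 and -10.5 on the duct arrays, and -12.9, -14.0 and -6.67 on the stroma arrays. Above that level, mmu-miR-188-5p stood at 33.0, 33.2 and 29.0 units in TEBs, 16.7 and 12.6 in ducts, and 0.93, -0.03 and 2.37 in stroma. The ducts then lay between TEBs and stroma with no overlap on either side. When this level was subtracted before scaling, an alternative chosen after seeing the data, mmu-miR-188-5p in TEBs exceeded that in ducts by 1.5 on the log2 scale (SE 0.49), and ducts exceeded stroma by 2.93 (SE 0.49). The 4.67-fold bound over ducts therefore does not hold once this level is subtracted. In the authors' value table the difference of TEBs from ducts was 2.45 (SE 0.31) and that of ducts from stroma 2.44 (SE 0.31). The difference of ducts from stroma was 0.37 (SE 0.22) as reported and 2.14 (SE 0.82) with 16 added in place of the floor. With normexp it was -0.23 (SE 0.11), so its size and sign depended on the processing. With this level subtracted, the TEB value of mmu-miR-188-5p over stroma was 4.43, against 4.68 without subtraction and 4.89 in the value table. The floor enters the 4.43, since the subtracted scaled stroma values were 0.94, -0.03 and 3.22. The bound over stroma also falls, because subtraction raises the lowest detected stroma signals by more than the TEB signals. The scaled undetected level was -13.2, -16.8 and -9.08 units in stroma and -4.31, -5.36 and -7.96 in TEBs. The lowered bound was not computed.

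**Figure D2:**
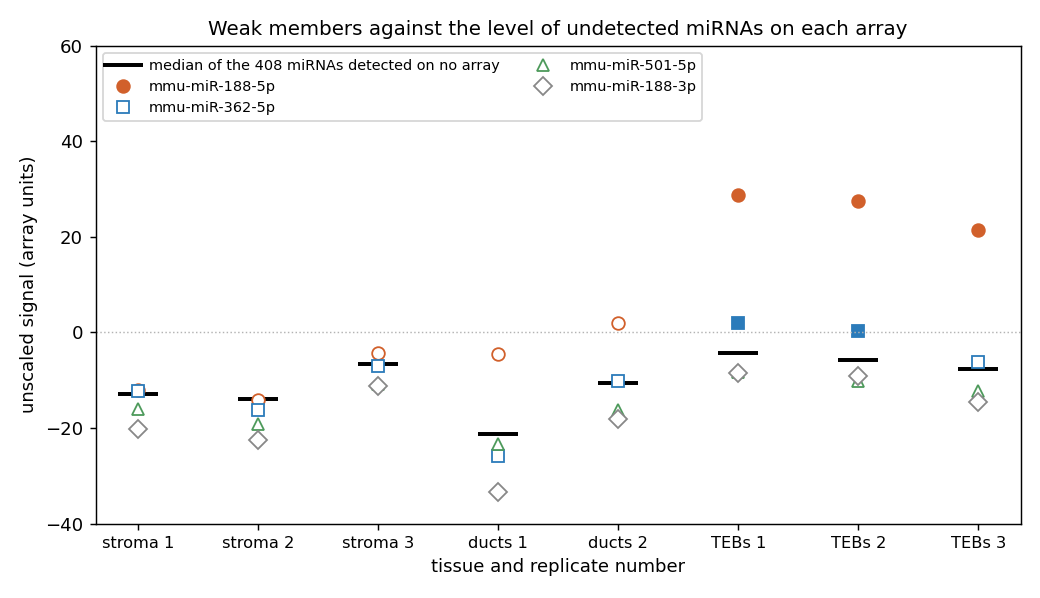
Unscaled signal (array units) of mmu-miR-188-5p, mmu-miR-362-5p, mmu-miR-501-5p and mmu-miR-188-3p on each of the 8 arrays, with filled symbols where the miRNA was detected. The black bar is the median of the 408 miRNAs detected on no array, and mmu-miR-188-5p lies 29.0 to 33.2 units above it in TEBs, 12.6 to 16.7 in ducts and -0.03 to 2.37 in stroma.

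The opposite arm, mmu-miR-188-3p, was not detected in any fraction. Its unscaled signal ran from -33.4 units on the first duct array to -8.56 on the first TEB array, and on every array it was below the median of the undetected miRNAs. Of the Mir188 hairpin, the 5p arm alone was detected on these arrays, in TEBs.

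mmu-miR-362-5p shares its seed with the 5p arm of Mir500 and was near the detection level in TEBs. Its unscaled signal was 2.04, 0.26 and -6.26 units on the TEB arrays, -25.8 and -10.2 on the duct arrays, and -12.3, -16.3 and -7.01 on the stroma arrays. The TEB signals lay above all duct and stroma signals, and the scanner software marked the first and second TEB arrays as detected. Both of those signals were smaller than their errors of 2.63 and 3.22 units, and the scaled signal of 0.25 on the second TEB array was the lowest of any detected miRNA there. Above the median of the undetected miRNAs, mmu-miR-362-5p stood at 6.32, 5.92 and 1.35 units in TEBs, -4.56 and 0.32 in ducts, and 0.54, -2.24 and -0.34 in stroma. No lower bound above 1 could be set for its TEB enrichment, and it was not tested. The study itself lists mmu-miR-362-5p among its candidates enriched in TEBs over ducts. The sources used here do not give the normalization behind that listing, so the 2 were not compared.

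mmu-miR-362-3p, from the other arm of the same hairpin, was detected on all 8 arrays. Its scaled signal was 50.8, 52.3 and 60.6 units in stroma, 39.3 and 41.3 in ducts, and 35.8, 38.6 and 38.8 in TEBs. All stroma arrays lay above all epithelial arrays, and the duct arrays were just above the TEB arrays with a gap smaller than the error of a single signal. The log2 fold change was -0.53 (SE 0.10) for TEBs over stroma, -0.43 (SE 0.11) for ducts over stroma and -0.09 (SE 0.11) for TEBs over ducts. Within the slide rows the TEB value against stroma was -0.45 and -0.54, and the duct value -0.37 and -0.45.

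mmu-miR-500, also detected on all 8 arrays, was likewise highest in stroma. Its scaled signal was 70.9, 76.0 and 93.1 units in stroma, 49.2 and 55.2 in ducts, and 53.6, 51.1 and 54.9 in TEBs. Stroma was above both epithelial fractions on every array, whereas ducts and TEBs overlapped. The log2 fold change was -0.58 (SE 0.12) for TEBs over stroma and -0.61 (SE 0.14) for ducts over stroma, and 0.03 (SE 0.14) for TEBs over ducts.

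The lower epithelial level of mmu-miR-362-3p and mmu-miR-500 depended on the scaling between arrays. Without scaling, mmu-miR-362-3p was 49.7, 43.6 and 44.5 units in stroma, 52.4 and 51.5 in ducts and 35.6, 40.7 and 37.1 in TEBs, so ducts stood above stroma. On the same unscaled signals mmu-miR-500 was 69.4, 63.3 and 68.4 units in stroma and 65.6 and 68.8 in ducts, with overlap, and 53.2, 54.0 and 52.5 in TEBs. For TEBs over stroma the log2 fold change of mmu-miR-362-3p and mmu-miR-500 was smaller with the 75th percentile over all miRNAs (-0.14 and -0.19), no scaling (-0.28 and -0.33), quantile normalization (-0.25 and -0.44) and the authors' value table (-0.19 and -0.38). With the undetected level subtracted it was -0.62 and -0.64. For ducts over stroma the sign turned for both without scaling (0.18 and 0.0042).

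mmu-miR-532-5p, encoded at the head of the cluster, was detected on 7 of the 8 arrays. Its scaled signal was 22.5, 13.1 and 19.3 units in stroma, 8.26 and 15.9 in ducts, and 17.1, 18.5 and 14.8 in TEBs. All 3 fractions overlapped, and the first duct array, where it was not detected, was the lowest. The log2 fold change was 0.55 (SE 0.33) for TEBs over ducts, -0.09 (SE 0.30) for TEBs over stroma and -0.64 (SE 0.33) for ducts over stroma. Leaving out the first duct array, which also recomputed the scaling, gave -0.13 for TEBs over ducts and 0.04 for ducts over stroma. On the scaling as reported, the second duct array (log2 3.99) lay below the TEB mean (4.07) and the stroma mean (4.16). The turn of both signs therefore came with the recomputed scaling. Above the level of the undetected miRNAs, the scaled signal of mmu-miR-532-5p was 35.6, 29.7 and 28.4 units in stroma, 24.01 and 24.4 in ducts, and 21.6, 24.01 and 22.8 in TEBs. On that scale all stroma arrays lay above all epithelial arrays, as for mmu-miR-362-3p and mmu-miR-500. The log2 fold change of mmu-miR-532-5p was then -0.45 (SE 0.11) for TEBs over stroma, -0.36 (SE 0.12) for ducts over stroma and -0.09 (SE 0.12) for TEBs over ducts, and with normexp the stromal comparisons gave -0.37 (SE 0.08) and -0.44 (SE 0.09).

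The remaining arms, mmu-miR-501-5p, mmu-miR-501-3p and mmu-miR-532-3p, gave negative signals on all 8 arrays. The scaled signal of mmu-miR-501-5p averaged -18.0 ± 4.3 units for stroma (SD, n = 3), -15.3 ± 3.1 for ducts (SD, n = 2) and -10.3 ± 2.3 for TEBs (SD, n = 3). That of mmu-miR-501-3p, which shares its seed with the 3p arm of Mir500, averaged -28.1 ± 7.8, -25.1 ± 9.85 and -13.6 ± 5.3 in the same order, and that of mmu-miR-532-3p -8.86 ± 2.2, -8.35 ± 0.14 and -4.70 ± 1.9. These less negative TEB signals moved with the level of the undetected miRNAs, whose scaled median was -4.31 to -7.96 on the TEB arrays against -8.45 to -16.8 on the others, and they are not levels of the miRNAs.

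**Figure D3:**
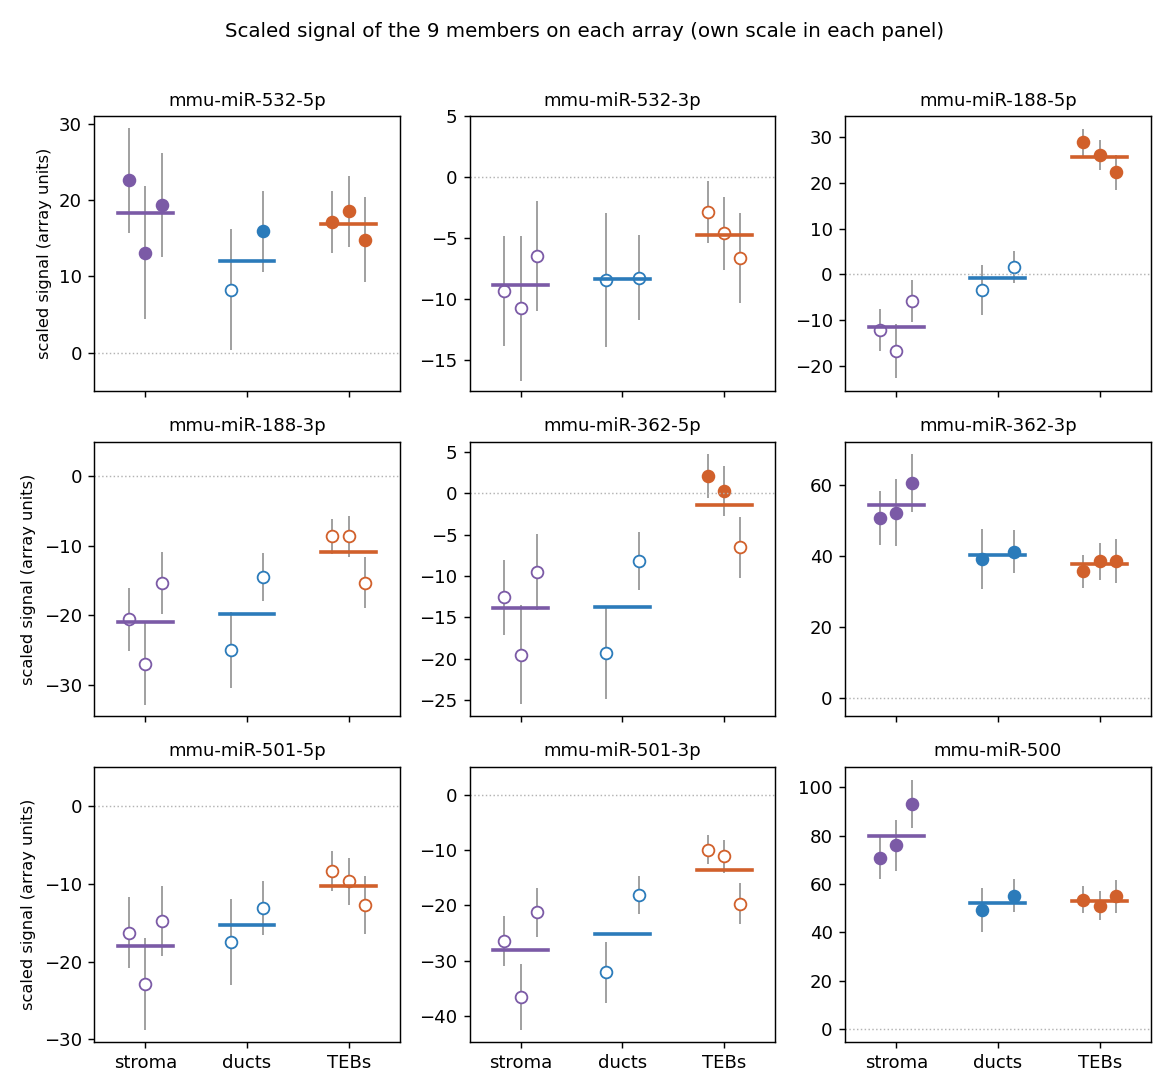
Scaled signal (array units) of the 9 members on the stroma (3), duct (2) and TEB (3) arrays, with the scaled error of each signal as a grey bar and the mean of each fraction as a coloured line. Filled points were detected, and the panels have their own scales. mmu-miR-188-5p is high in the 3 TEB arrays, mmu-miR-362-3p and mmu-miR-500 are highest in the 3 stroma arrays, and mmu-miR-532-5p overlaps in all fractions on this scale.

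Counts of calls are given with their background, and nothing is read from them since these contrasts chose the cluster. For TEBs over ducts, 1 of the 4 fitted members passed (mmu-miR-188-5p, higher), beside 24.6% of the 167 miRNAs. For TEBs over stroma 3 of 4 passed, with mmu-miR-188-5p higher and mmu-miR-362-3p and mmu-miR-500 lower, beside 64.7%. For ducts over stroma 2 of 4 passed, with mmu-miR-362-3p and mmu-miR-500 lower, beside 21.6%. The median log2 fold change of the 4 was 0.29, -0.31 and -0.52 in these comparisons, and that of the 167 was -0.10, -0.28 and -0.09. The comparisons share arrays and are not independent of each other.

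The log2 signals of mmu-miR-362-3p and mmu-miR-500 followed each other closely, with r of 0.97 over the 8 arrays and 0.86 after the mean of each fraction was removed. For mmu-miR-188-5p, r was -0.72 against mmu-miR-362-3p and -0.56 against mmu-miR-500 over the 8 arrays, but 0.05 and 0.28 after the fraction means were removed. mmu-miR-532-5p had r of 0.20, 0.31 and 0.42 against mmu-miR-188-5p, mmu-miR-362-3p and mmu-miR-500, and 0.74, 0.19 and 0.21 after that step. These values describe 8 arrays in 3 fractions that share their scaling.

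Among the 163 other fitted miRNAs, the profiles most like that of mmu-miR-188-5p were those of mmu-miR-31 (r = 0.99), mmu-miR-132 (0.99) and mmu-miR-135a* (0.97), each detected on the 3 TEB arrays alone, so that the floor gives all of them a like profile. mmu-miR-362-3p was nearest to mmu-let-7f (0.96), mmu-let-7g (0.94) and mmu-miR-350 (0.94). The profile of mmu-miR-500 was nearest to mmu-let-7f (0.98), mmu-miR-196a (0.93) and mmu-miR-107 (0.92), and that of mmu-miR-532-5p to mmu-miR-98 (0.90), mmu-miR-146a (0.88) and mmu-miR-423-5p (0.88).

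The other miRNAs matched to the X chromosome alone give a measure of how the cluster sits among its neighbours on that chromosome. Of 68 on the array, 12 were detected on at least 1 array and 9 were fitted. For TEBs over ducts 2 of the 9 were higher and 0 lower, namely mmu-miR-503 (log2 fold change 3.19) and mmu-miR-20b (1.08). For TEBs over stroma 4 were higher (mmu-miR-503, 4.51, mmu-miR-20b, 1.55, mmu-miR-221, 0.89, and mmu-miR-322, 0.63) and 1 lower (mmu-miR-223, a myeloid miRNA, -0.64). For ducts over stroma 1 was higher (mmu-miR-322, 0.66) and 0 lower. Over all 167 fitted miRNAs, 24.6%, 64.7% and 21.6% passed in these comparisons, in either direction. The values of mmu-miR-503 and mmu-miR-221, each detected on 4 of the 8 arrays, rest in part on undetected signals, which the floor may affect. The median log2 fold change of the 9 was 0.46, 0.63 and 0.43, beside -0.10, -0.28 and -0.09 for the 167. In both TEB comparisons mmu-miR-362-3p and mmu-miR-500 lay below the median of the other X-linked miRNAs. mmu-miR-532-5p lay above it for TEBs over ducts (0.55) and below it for TEBs over stroma (-0.09). mmu-miR-188-5p lay above it in both, which follows from the choice of the cluster on its pattern, so nothing is read from it.

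**Figure D4:**
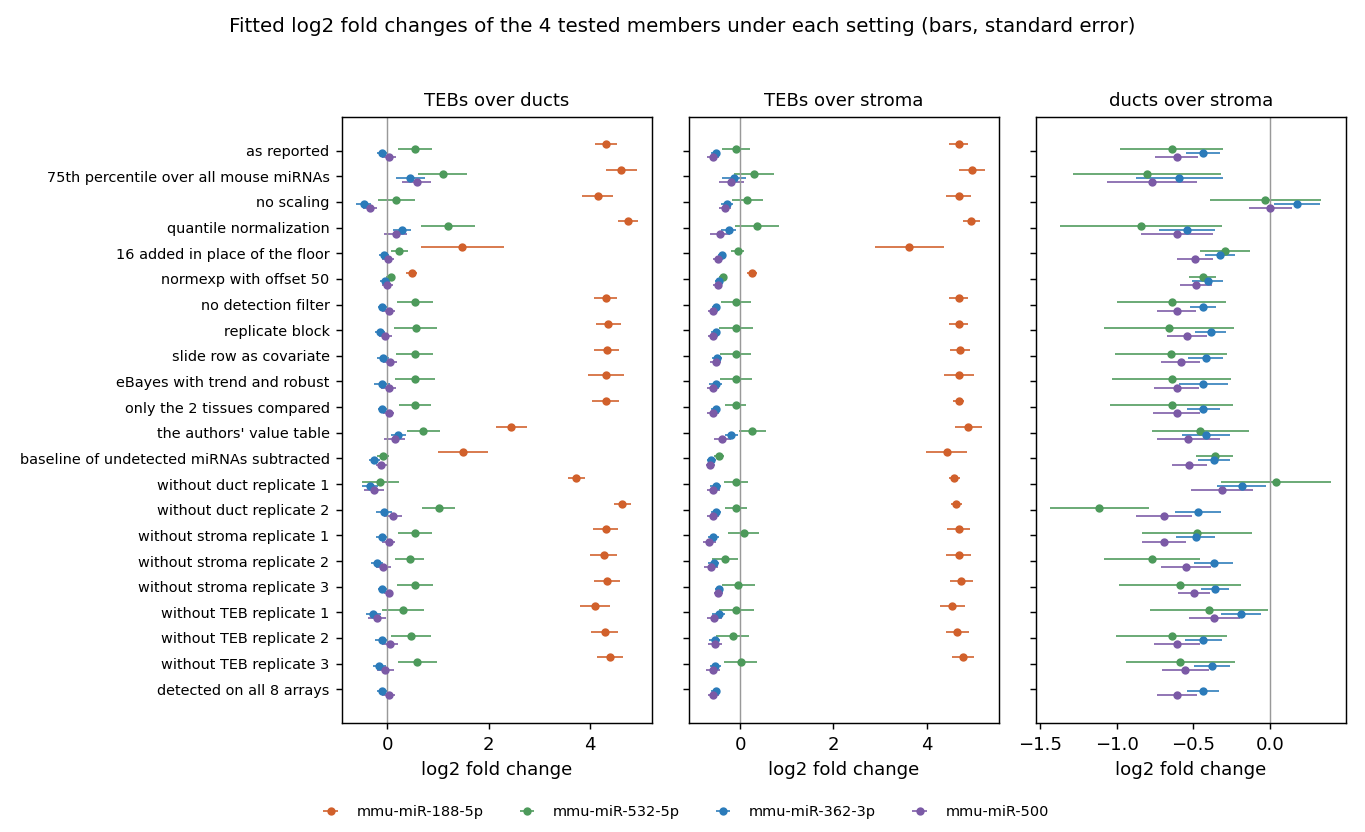
Fitted log2 fold change (points) with its standard error (bars) of the 4 fitted members in the 3 comparisons, for the reported processing and each alternative (rows). mmu-miR-188-5p ranges from 0.48 to 4.74 for TEBs over ducts and from 0.25 to 4.97 for TEBs over stroma, and is left out of the last panel because neither fraction detected it, while the values of mmu-miR-362-3p and mmu-miR-500 for TEBs over ducts change sign with the scaling.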

How the data were processed

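The authors deposited, for each of 8 single-colour Agilent mouse miRNA arrays (Cy3-pCp label), the total signal intensity of each miRNA, its error and a detection flag from Agilent Feature Extraction 9.5.3 (submitters' processing notes). These intensities are background-subtracted sums over the probes of each miRNA, with no normalization between arrays. The deposited value table holds log2 values with column medians of 0.17 to 1.69 (r of 0.95 to 0.97 with log2 of the intensities). Its normalization is not given in the sources used here, and it served as an alternative. Groups follow the region named in the labels.

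Control rows (22) and 39 viral probes were left out. Each array was multiplied by a factor (0.75 to 1.36) that brought its 75th percentile over the 108 miRNAs detected on all 8 arrays to the geometric mean, since the percentile over all 611 lay among the weakest signals (11.5 to 29.9 units). After a floor of 1, log2 was taken. The 167 miRNAs that every array of some tissue detected were fitted with limma 3.58.1 in R 4.3.3 on all 8 arrays, with Benjamini-Hochberg adjustment within each comparison and a threshold of 0.05. Where a tissue lacked detection, the bound set the brighter mean against the higher of each array's lowest detected signal and the miRNA's own (means of log2 values). Tables were joined in Python 3.11.15 with pandas 2.3.3, and the fit was tested on simulated data.

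The members, gene lists and tests were chosen with earlier results of these data known. Named besides the members were the 3 most correlated miRNAs of each fitted member, miRNAs sharing a seed, and called X-linked miRNAs. Alternatives were other scalings, 16 added in place of the floor, normexp (offset 50), other detection filters, a replicate block, the slide row, eBayes with trend and robust estimation, fits on 2 tissues, the value table, subtraction of the undetected level (chosen after seeing the data), and each array left out in turn. The PCR, cell line and tumour experiments were not analysed here.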

Additional observations from a re-analysis of the deposited data

How the results depend on the processing

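The detection counts of the members (3 in stroma, 2 in ducts, 4 in TEBs) were 3, 3 and 5 when 1 array sufficed and 2, 2 and 3 when the signal had to exceed 3 times its error. The sign of mmu-miR-188-5p in the TEB comparisons is fixed by the choice of the cluster, and its size over ducts ran from 0.48 (normexp) to 4.74 (quantiles), with 1.48 when 16 was added. The number of members called changed as follows, and nothing is read from it. For TEBs over ducts (1 as reported) it was 2 without scaling (mmu-miR-362-3p lower) and 0 with 16 added or with detection on all 8 arrays, which removes mmu-miR-188-5p. For TEBs over stroma (3) it was 1 with the 75th percentile over all miRNAs, no scaling, quantile normalization or the value table, 2 with detection on all 8 arrays, and 4 with normexp or the undetected level subtracted. For ducts over stroma (2) it was 0 with the percentile over all miRNAs, no scaling, quantile normalization, no detection filter, the replicate block or only the 2 tissues, and 1 with 16 added, the slide row, trend and robust estimation or the value table, where it was mmu-miR-188-5p alone (higher, 2.44), and 3 with normexp or the undetected level subtracted. Without scaling the ducts over stroma values of mmu-miR-362-3p and mmu-miR-500 reversed, to 0.18 and 0.0042. Leaving out each array gave 1 to 1, 3 to 3 and 0 to 2 members.

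Over all 167 miRNAs, TEBs over ducts (41 called) gave 75 without scaling, 18 with no filter, 70 with the undetected level subtracted and 16 with a replicate block, and 5 to 70 when single arrays were left out, with 10 without the first duct array, 70 without TEB array 1 and 5 without TEB array 2. TEBs over stroma (108) gave 66 with the percentile over all miRNAs and 82 to 114 without single arrays. Ducts over stroma (36) gave 19 with that percentile, 56 without scaling, 66 with normexp and 26 to 40 without single arrays. The split of higher and lower calls for TEBs over ducts was 19 and 22 as reported, 24 and 6 with the percentile over all miRNAs, 12 and 63 without scaling, 31 and 14 with quantiles, 32 and 18 in the value table, and 21 and 49 with the undetected level subtracted. For TEBs over stroma 34 and 74 became 38 and 28 with the percentile over all miRNAs, 41 and 41 without scaling and 43 and 60 in the value table, and for ducts over stroma 16 and 20 became 11 and 8, then 52 and 4, under the first and second of these. The median of all 167 shifted with the percentile over all miRNAs by 0.55, 0.39 and -0.16, without scaling by -0.36, 0.25 and 0.59, with quantiles by 0.12, 0.21 and -0.04, and in the value table by 0.12, 0.25 and 0.002. Deviations of same-numbered arrays had a mean r of -0.10 over 7 pairs (0.05 over 14 other pairs), and 3 of 6 TEB and stroma arrays correlated best with their own. The causes were not tested.

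At or below the detection level, the order of values is not taken as a result. For mmu-miR-188-5p, the order of ducts and stroma depended on the processing.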
